A study of Mus musculus with 13 samples.

Results

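Microglia, the resident macrophages of the brain, were compared between 5xFAD mice labelled as PKR knockout and 5xFAD mice that carry a control vector. The comparison used 6 of the 13 libraries: 4 labelled 5xFAD with PKR KO and 2 labelled 5xFAD with AAV PHP.eB-EGFP. It covered the 10817 of 19737 listed genes that had a mean of at least 1 FPKM (fragments counted per kilobase of exons and corrected for library depth) over all 13 libraries. Both groups carry the 5xFAD transgenes, human amyloid precursor protein and presenilin 1 with familial Alzheimer mutations, driven by the neuronal Thy1 promoter. The control mice had received an adeno-associated virus (AAV) with the PHP.eB capsid, which crosses from blood into brain, carrying enhanced green fluorescent protein. No vector is named for the knockout mice. Genotype and vector therefore differ together, and library names appear only in the labels of the knockout libraries, so the knockout and any separate preparation of its libraries cannot be told apart. The other libraries were wild type mice with the same EGFP vector (n = 3) and 5xFAD mice with an AAV PHP.eB carrying circPOLR2A, a circular RNA (n = 4), whose treatment labels differ between libraries. Age, sex, brain region, how microglia were isolated, which exons of the PKR gene were removed and in which cells are not given in the sources used here, nor whether a library held 1 animal or several. The comparison asks how loss of PKR is reflected in microglia of this amyloid model, beside delivery of a circular RNA in the same series.

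PKR, the product of Eif2ak2, is a kinase that binds double-stranded RNA. Once bound it pairs, phosphorylates itself and then phosphorylates the alpha subunit of eIF2, the factor that brings the initiator tRNA to the ribosome, which slows protein synthesis and favours translation of a few messengers such as that of the transcription factor ATF4. PKR is itself induced by interferon and is known as an antiviral sensor. It has also been linked to inflammatory signalling through NF-kappaB and to stress signalling in models of Alzheimer's disease. Microglia in amyloid models move from a homeostatic state, marked by genes such as P2ry12, to a disease-associated state marked by genes such as Apoe and Gpnmb.

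Before any gene was tested the 6 libraries were compared as libraries. By the depth recovered from the FPKM steps, a gene of 1 kb at 1 FPKM rested on 57.7 to 70.0 fragments in the knockout libraries and 53.5 and 54.9 with EGFP. The median absolute difference per gene on the log2(FPKM + 1) scale was 0.0917 to 0.127 within the 6 pairs of knockout libraries, 0.105 between the EGFP libraries and 0.130 to 0.162 in the 8 pairs across groups. The microglial marker Csf1r, the receptor on which microglia depend, was high in each library, at 592 to 615 FPKM in the knockout libraries and 562 and 500.1 with EGFP. Knockout replicate 2 stood apart in its sex-linked genes. The Y-linked genes Ddx3y, Kdm5d, Uty and Eif2s3y summed to 0.0108 FPKM there and to 13.9 to 20.6 FPKM in each of the other 12 libraries, and the labels do not give the sex of any mouse. Results are therefore given with and without that library where they rest on it.

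Transcripts of other brain cells also differed between the groups. Summed over 9 oligodendrocyte markers, the knockout libraries held 235 to 390.4 FPKM and the EGFP libraries 673 and 714. Summed over 10 neuron markers, the values were 10.1 to 17.6 and 27.4 and 24.0 FPKM, again with no overlap. Astrocyte markers overlapped, at 148 to 238 against 224 and 155 FPKM, as did choroid plexus markers at 206 to 826 against 782 and 569.6. Endothelial markers went the other way, at 36.2 to 49.4 FPKM against 35.5 and 25.6 with no overlap. All 7 were higher, against 51.8% over all genes tested. Of these 7, 1 had an unadjusted p under 0.05 by limma, against 7.41% higher over all genes tested. That count was 0 without EGFP replicate 2, 1 without each of the other 5 libraries, and 1 to 6 over the 10 other settings. The covariate of other brain cells used below averages neuron, astrocyte, oligodendrocyte and endothelial markers, and so combines lists that differed in opposite directions. In the fit with it, 5 of 8 tested oligodendrocyte and 1 of 5 neuron markers were lower at an unadjusted p under 0.05 by limma. Higher at that level were 6 of 7 endothelial and 2 of 8 astrocyte markers. The covariate therefore did not remove these differences. Red cell markers were high in knockout replicates 1 and 3, at 83.2 and 139 FPKM, against 3.60 to 14.7 in the other 4 libraries of the comparison. In bulk samples fewer cells of a type and less RNA per cell cannot be told apart.

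**Figure D1:**
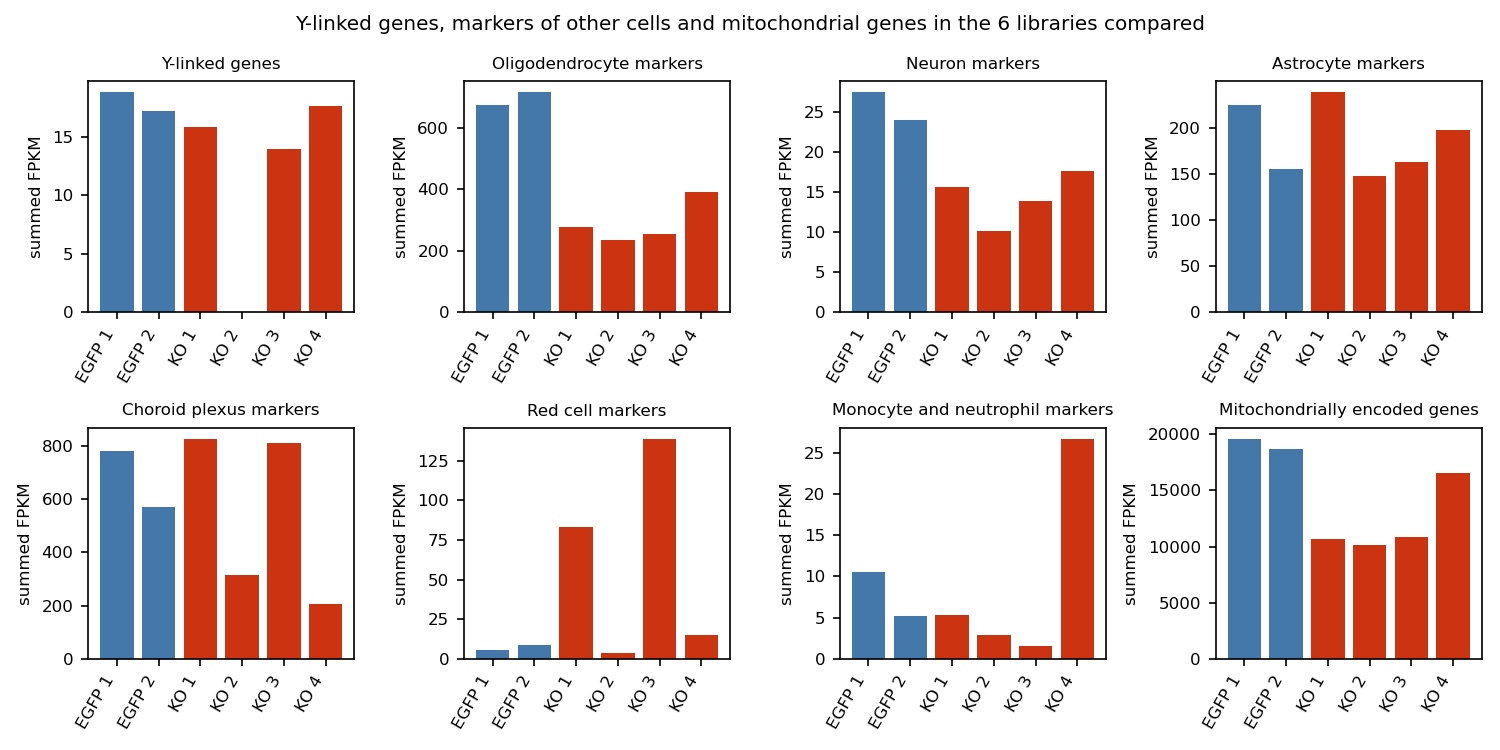
Summed FPKM (y axes, from 0) of the Y-linked genes, of markers of other cells and of mitochondrially encoded genes in each of the 6 libraries compared (x axes), with EGFP in blue and PKR knockout in red. Knockout replicate 2 has almost no Y-linked signal (0.0108 FPKM), and the oligodendrocyte sums of the 4 knockout libraries (235 to 390.4) lie below those of both EGFP libraries (673 and 714).

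The targeted gene, Eif2ak2 (chr17:78852564-78882573, minus strand, GRCm38), was still detected in the knockout libraries. Its values were 3.35, 4.61, 3.31 and 4.16 FPKM in the knockout libraries against 6.49 and 6.59 with EGFP. All 4 knockout libraries lay below both EGFP libraries, with group means of 3.86 ± 0.639 (SD, n = 4) and 6.54 ± 0.0705 (SD, n = 2). The log2 difference was -0.64 (SE 0.11), with an adjusted p of 0.0644 by limma with Benjamini-Hochberg adjustment over all 10817 genes, so it did not pass the threshold of 0.05. It had the smallest p among the genes that were lower. It passed with an adjusted p of 0.0288 where only genes of at least 5 FPKM were tested and of 0.0201 where the 2 groups were fitted alone. The FPKM of a gene sums fragments over all its exons, and since the removed exons are not given, fragments outside them may be counted, so this value checks the labels only in part. For reference, Eif2ak2 stood at 7.37 to 8.11 FPKM in the 4 circRNA libraries and at 4.14 to 5.23 in the 3 wild type libraries, a range that holds knockout replicates 2 and 4.

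In the knockout libraries 9 genes rose and 0 fell at an adjusted p of 0.05 by limma (0.0832% and 0.0% of the 10817 genes tested). The 9 were Zc3h12a, Maff, Kdm6b, Cdkn1a, Dkk2, Lox, Tmsb10, Sorl1 and Mthfs. They share an adjusted p of 0.0430 and differ in size from 0.49 to 1.02 on the log2(FPKM + 1) scale. In each of them every knockout library lay above both EGFP libraries. The calls depended on the libraries: without knockout replicate 1, 2 genes passed (Lox and Lgi2), and without any other single library of the 6, 0 passed. Without knockout replicate 2 the log2 differences of the 9 genes were 0.48 to 1.04, with a smallest adjusted p of 0.121. At an unadjusted p under 0.05, 802 genes were higher and 602 lower (7.41% and 5.57% of genes tested). The split moved with the scaling and with the libraries. It was 603 higher and 1133 lower when libraries were rescaled to the same FPKM sum, and 1387 and 494 with median-ratio scaling. It was 663 and 219 without EGFP replicate 1, 302 and 376 without EGFP replicate 2, 811 and 1015 with the replicate number as a block, 1340 and 1269 with the 2 groups alone and 1597 and 1362 with library weights. With no filter on low values it was 962 and 1041, and over genes of 5 FPKM or more 552 and 167. Without 1 knockout library it was 604 to 798 higher and 413 to 573 lower. Group values that do not overlap were found for 17.7% of genes in the higher and 17.0% in the lower direction.

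4 nuclear or RNA-binding regulators were among the 9 genes that rose. Zc3h12a encodes Regnase-1, an endonuclease that degrades inflammatory messengers such as that of interleukin-6, and is itself a target of NF-kappaB signalling. Its values were 19.9, 18.4, 15.8 and 15.6 FPKM in the knockout libraries against 7.20 and 8.91 with EGFP. The lowest knockout library was thus well above the higher EGFP library, and the log2 difference was 1.02 (SE 0.15). Maff encodes a small Maf protein, a partner of other leucine zipper factors that has no activation domain of its own. It measured 14.8, 15.1, 11.4 and 11.5 against 6.37 and 6.87 FPKM, a log2 difference of 0.89 (SE 0.14). Kdm6b encodes the histone H3 lysine 27 demethylase JMJD3, known from activated macrophages. Its values were 11.1, 11.2, 9.59 and 9.48 against 5.55 and 6.47 FPKM, a log2 difference of 0.69 (SE 0.11). Cdkn1a encodes the cyclin-dependent kinase inhibitor p21, a target of p53. It measured 9.69, 8.27, 10.6 and 7.47 against 4.60 and 4.64 FPKM, a log2 difference of 0.82 (SE 0.13). In Zc3h12a and Maff knockout replicates 1 and 2 were the higher pair, whereas in Cdkn1a replicates 1 and 3 were.

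The other 5 genes that rose encode secreted, cytoskeletal, sorting and metabolic proteins. Dkk2 encodes a secreted Wnt antagonist and is on the list of disease-associated microglia genes. Its values were 9.03, 8.13, 10.1 and 8.85 FPKM in the knockout libraries against 4.09 and 3.91 with EGFP, a log2 difference of 1.00 (SE 0.15). Lox encodes lysyl oxidase, which crosslinks collagen and elastin. It measured 6.58, 7.49, 7.99 and 9.33 against 4.75 and 4.61 FPKM, a log2 difference of 0.63 (SE 0.10). Both are nearly absent from wild type microglia, at 0.0566 to 0.0909 and 0.329 to 0.440 FPKM, so both EGFP libraries already stood above wild type. Tmsb10 encodes thymosin beta-10, a small peptide that binds actin monomers. It measured 21.2, 24.3, 19.1 and 24.4 against 10.2 and 12.6 FPKM, a log2 difference of 0.91 (SE 0.14). Sorl1 encodes a sorting receptor that steers amyloid precursor protein away from processing in endosomes and is an Alzheimer's disease risk gene. It measured 13.5, 13.5, 13.1 and 12.7 against 9.89 and 8.36 FPKM, a log2 difference of 0.49 (SE 0.07). The knockout libraries spanned 12.7 to 13.5 FPKM and the EGFP libraries differed more from each other than the knockout libraries did. Mthfs encodes an enzyme of folate metabolism, methenyltetrahydrofolate synthetase. It measured 4.77, 5.42, 5.42 and 5.59 against 3.18 and 3.31 FPKM, a log2 difference of 0.57 (SE 0.08), and is uncertain because the protein-coding gene model Gm29094 overlaps it on the same strand and stood at 44.6 FPKM on average in the knockout and 30.0 with EGFP, so fragments may have been split between them.

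The positions of the 9 genes in GRCm38 are spread over 8 chromosomes. Zc3h12a lies at chr4:125118423-125127840, minus strand, Maff at chr15:79346621-79359076, plus strand, Kdm6b at chr11:69398508-69413675, minus strand and Cdkn1a at chr17:29090976-29100727, plus strand. Dkk2 lies at chr3:132085292-132180304, plus strand, Lox at chr18:52516067-52529867, minus strand and Tmsb10 at chr6:72957347-72958748, minus strand. Sorl1 and Mthfs share a chromosome, at chr9:41964720-42124297, minus strand and chr9:89210676-89377713, plus strand. Antisense or unclassified transcripts overlap Sorl1, Kdm6b, Cdkn1a, Lox and Mthfs on the opposite strand, and how strand was treated in counting is not given in the sources used here.

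**Figure D2:**
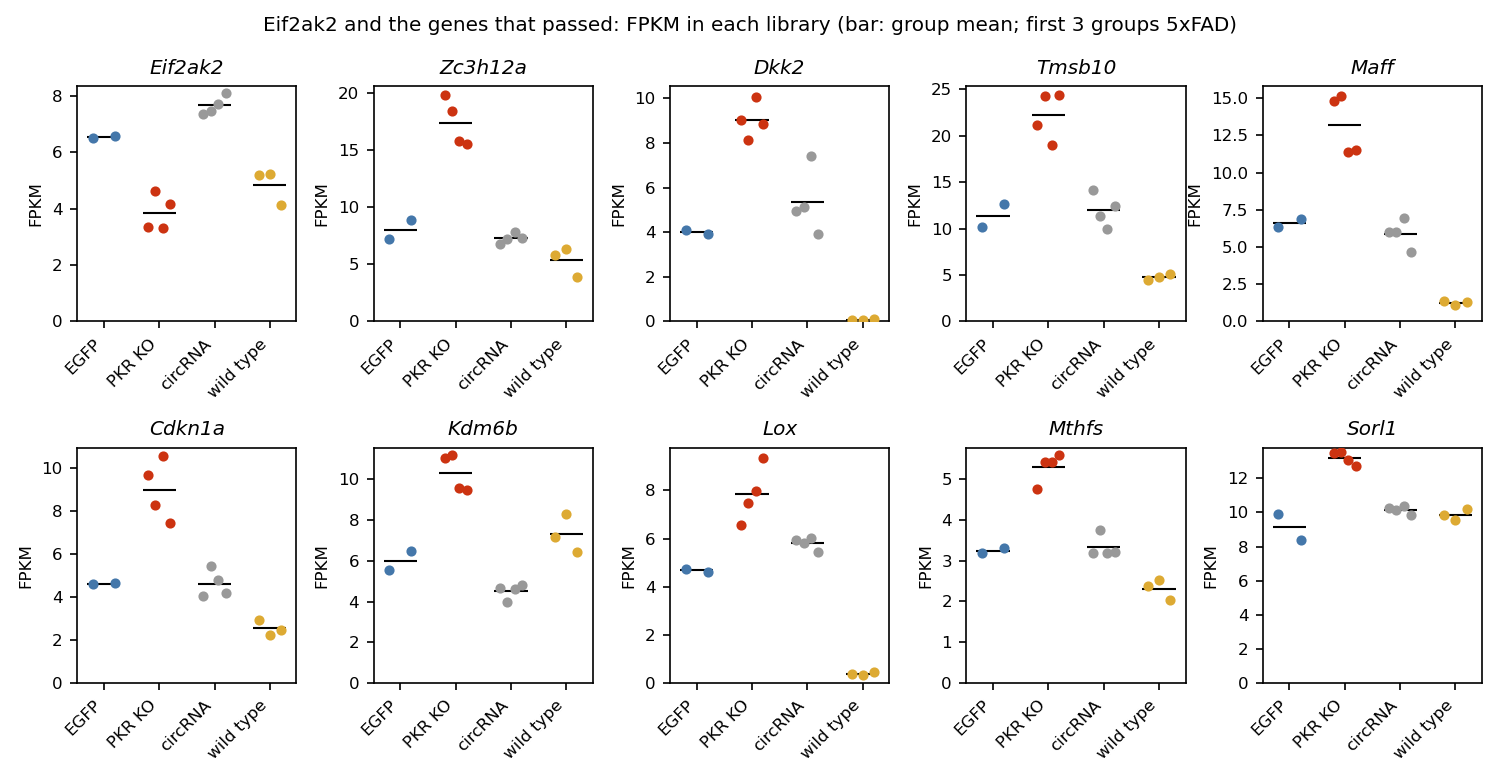
FPKM (y axes, from 0) of Eif2ak2 and of the 9 genes that passed in all 13 libraries, by group (x axes). Points are libraries and bars are group means. In each of the 9 genes the 4 knockout libraries lie above both 5xFAD EGFP libraries, and in Eif2ak2 all 4 lie below. For Zc3h12a the knockout libraries sit between 15.6 and 19.9 FPKM and those with EGFP at 7.20 and 8.91.

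Levels in the other groups are given beside these for orientation, without a test. Zc3h12a stood at 6.79 to 7.89 FPKM with circRNA and 3.93 to 6.39 in wild type, both below the knockout range of 15.6 to 19.9. Cdkn1a stood at 4.07 to 5.43 and 2.26 to 2.93 FPKM, and Tmsb10 at 10.0 to 14.1 and 4.48 to 5.06. Maff stood at 4.65 to 6.92 and 1.08 to 1.36 FPKM. Kdm6b differs from these in its order: wild type, at 6.44 to 8.30 FPKM, lay above the circRNA libraries at 3.99 to 4.80 and overlapped the EGFP libraries at 5.55 and 6.47. For Sorl1 the circRNA libraries (9.84 to 10.4) and wild type libraries (9.56 to 10.2) overlapped, and all 4 knockout libraries exceeded both ranges at 12.7 to 13.5 FPKM.

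Outside these 9, the gene with the next smallest p was Plekho2, a pleckstrin homology domain protein, at 17.3, 19.6, 15.2 and 17.8 against 10.7 and 10.2 FPKM and an adjusted p of 0.0539 by limma. Among genes that were lower, none passed. After Eif2ak2 the smallest p values belonged to Tmem65, a mitochondrial membrane protein (4.41, 4.13, 4.29 and 4.08 against 5.33 and 5.71 FPKM, log2 difference -0.32, limma adjusted p 0.0644), and to 2300009A05Rik (0.762, 0.664, 0.831 and 0.636 against 1.42 and 1.38 FPKM, -0.48 and 0.0644 in the same order). Apoo, a subunit of the complex that shapes mitochondrial cristae, measured 1.28, 0.968, 1.12 and 0.948 against 1.97 and 1.68 FPKM. Flvcr1, a heme and choline transporter, measured 1.45, 1.70, 1.69 and 1.60 against 2.46 and 2.18 FPKM. Rtn4, the reticulon also known as Nogo, measured 17.6, 18.5, 17.5 and 19.2 against 24.4 and 27.1, and Prkca, protein kinase C alpha, measured 2.85, 2.74, 3.08 and 2.56 against 4.05 and 3.85 FPKM. The last of the 10 with the smallest p were mt-Nd3, Vma21 and Eloc, with log2 differences of -1.26, -0.38 and -0.29. Each of these genes was lower in all 4 knockout libraries than in both EGFP libraries, and their adjusted p values were 0.0644 to 0.132.

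**Figure D3:**
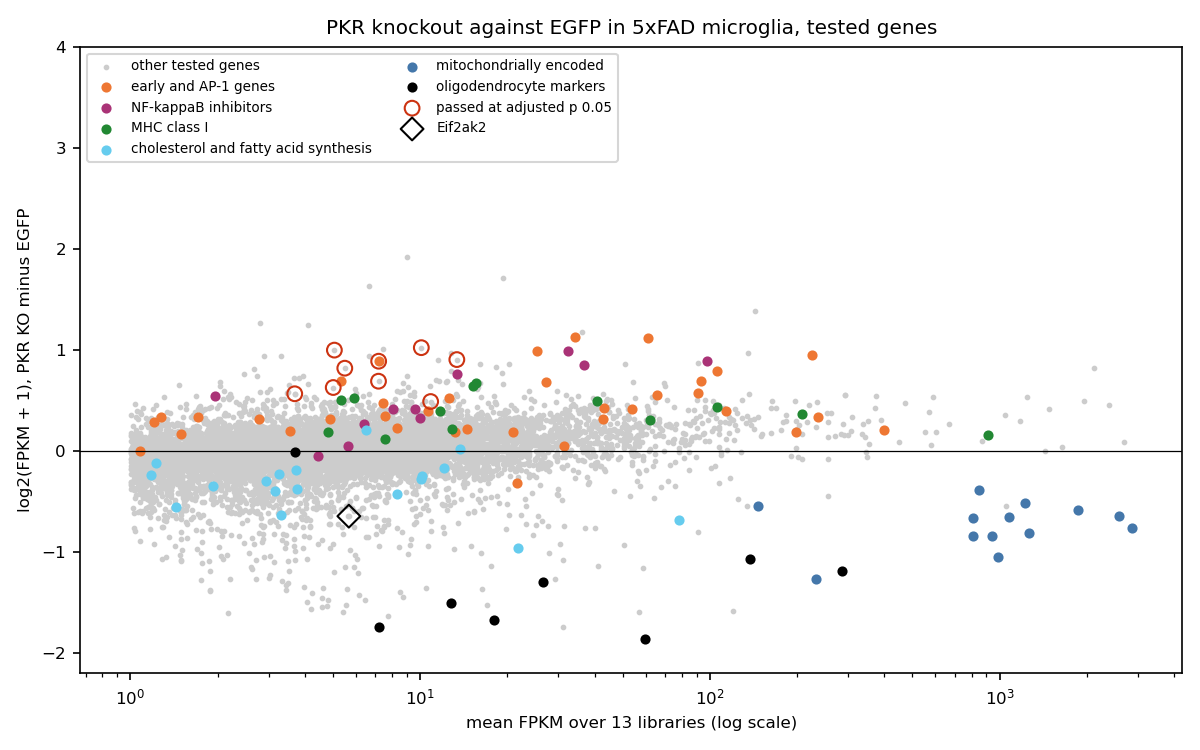
Difference in mean log2(FPKM + 1), knockout minus EGFP (y axis), against mean FPKM over the 13 libraries (x axis, log scale) for the 10817 genes tested. Red rings mark the 9 genes that passed and the diamond marks Eif2ak2. Early and AP-1 genes, NF-kappaB inhibitors and MHC class I genes lie mostly above 0, and mitochondrially encoded genes, oligodendrocyte markers and most genes of cholesterol and fatty acid synthesis lie below 0.

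The gene lists below are described by counts of genes at an unadjusted p under 0.05, beside the 7.41% higher and 5.57% lower over all genes tested, and by the median log2 difference, beside 0.00768 over all genes tested. Such genes did not pass the adjusted threshold unless they are among the 9 above. Where leaving out 1 of the 6 libraries moved a count by over 1.5 times, that library is named, and where any of 10 other settings did (other filters, pseudocount, scalings, library weights, a covariate, a block or the 2 groups alone), the range of the count over them is given. The share over all genes moved as well, so a count under another setting is to be read against the share there. The higher share was 2.79% without EGFP replicate 2 and 5.58% to 7.38% without each of the other 5 libraries, and 4.87% to 14.8% over the 10 other settings. The lower share was 2.02% without EGFP replicate 1, 3.48% to 5.30% without each of the others, and 3.36% to 12.6% over those settings. Group values without overlap were found for 17.7% of all genes tested in the higher and 17.0% in the lower direction. Of 4 kinases that phosphorylate eIF2 alpha, Eif2ak2 was lower and the other 3 were higher, all without overlap between groups: Eif2ak1, the heme-regulated kinase, by 0.23, Eif2ak3, the kinase of the endoplasmic reticulum (ER) also called PERK, by 0.13, and Eif2ak4, the amino acid sensor GCN2, by 0.13. Of these 3, Eif2ak1 had an unadjusted p under 0.05, a count that was 0 without knockout replicate 3 or EGFP replicate 1 or 2, 1 without each of the other 3 libraries, and 0 to 1 over the 10 other settings. The 8 tested subunits of eIF2 and of its exchange factor eIF2B held 0 genes at that level (0 to 1 higher over the 10 other settings), and their differences ran from -0.06 to 0.18. Of 5 subunits of the phosphatases that remove the phosphate, Ppp1r15a, the inducible subunit GADD34, was higher at 27.6, 26.7, 21.9 and 23.7 against 13.4 and 17.2 FPKM (log2 difference 0.68, limma adjusted p 0.136). Among 11 regulators of PKR, the adenosine deaminases Adar and Adarb1, which edit double-stranded RNA, had an unadjusted p under 0.05: Adar measured 12.0, 11.6, 10.1 and 10.9 against 9.72 and 8.18 FPKM and Adarb1 6.75, 6.52, 7.27 and 6.88 against 5.56 and 5.02. Their count of 2 was 0 without EGFP replicate 2, 2 to 3 without each of the other 5 libraries, and 1 to 3 over the 10 other settings.

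Downstream of eIF2 phosphorylation, the ATF4 list stood near the share over all genes. Of 23 tested targets, 0 were higher (1 with the covariate of other brain cells) and 1 lower (Vldlr) at an unadjusted p under 0.05 by limma, and of 6 transcription factors of the pathway 1 was higher (Cebpb). The count of 1 lower target was 0 without knockout replicate 2 or EGFP replicate 1 or 2, 1 without each of the other 3 libraries, and 0 to 2 over the 10 other settings. The count of 1 higher factor was 0 without knockout replicate 1 or 3 or EGFP replicate 1 or 2, 1 without each of the other 2 libraries, and 0 to 2 over the 10 other settings. The median difference of the targets was 0.03 and ran from -0.03 to 0.08 over the 16 alternatives, so its direction is not fixed. Ddit3, which encodes the stress factor CHOP, measured 7.46, 7.48, 8.56 and 6.93 against 6.69 and 6.59 FPKM, and Iars, the isoleucine tRNA synthetase, 8.05, 8.59, 7.98 and 8.42 against 8.93 and 9.22. Slc3a2, the heavy chain of the leucine transporter and the most abundant of the targets, measured 39.4, 36.3, 34.2 and 35.5 against 39.0 and 34.4 FPKM, with overlapping groups. The amount of phosphorylated eIF2 or of new protein was not measured here.

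NF-kappaB factors are held in the cytoplasm by I-kappaB proteins, and many of the genes they induce encode these inhibitors again. Of 11 tested inhibitors, 9 had an unadjusted p under 0.05 and were higher in the knockout libraries, a count that was 7 to 9 without each of the 6 libraries in turn and 8 with markers of other brain cells as a covariate. Their median log2 difference was 0.42. Tnfaip3, the ubiquitin-editing enzyme A20, measured 60.7, 58.8, 48.3 and 63.6 FPKM in the knockout libraries against 28.0 and 29.0 with EGFP (log2 difference 0.99, limma adjusted p 0.0817). Nfkbia, the inhibitor I-kappaB alpha, measured 176, 168, 126 and 159 against 86.1 and 81.2 FPKM (0.89), and Nfkbiz, the nuclear I-kappaB zeta, 62.7, 70.1, 51.7 and 71.1 against 32.0 and 37.4 FPKM (0.86). In all 3 the knockout libraries lay above both EGFP libraries, and knockout replicate 3 was the lowest of the 4. The subunits themselves were counted separately, and the difference between them and the inhibitors was not tested. Nfkb2 was higher by 0.33, the only 1 of 5 at an unadjusted p under 0.05 (a count that was 0 without EGFP replicate 2, 1 without each of the other 5 libraries, and 1 to 3 over the 10 other settings), while the other 4 differed by 0.03 to 0.17 (Rela, the main partner of NF-kappaB dimers). Of 16 kinases and adaptors, 5 were higher at that level, led by Map3k8, the kinase TPL2 that links Toll-like receptors to ERK, at 5.52, 5.44, 4.92 and 5.69 against 3.74 and 3.08 FPKM (adjusted p 0.0756 by limma). The count of 5 was 2 without knockout replicate 3 or EGFP replicate 2, 3 without knockout replicate 1 or 2 or EGFP replicate 1, 4 without the other library, and 1 to 9 over the 10 other settings. It was 2 with the covariate of other brain cells and 2 after rescaling to the same sum. None of the 32 tested genes of the pathway was lower at an unadjusted p under 0.05 in the analysis as reported.

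Promoter windows of 300 bases (250 before to 50 after an annotated start, RefSeq, GRCm38.p6) were searched on both strands for 3 motifs: AP-1 (TGANTCA), the cAMP response element CRE (TGACGTCA) and a kappaB site (GGG, then 2 bases of any kind, then TTTCC). Over all 27025 genes with a window these letters occur in 8.97%, 2.03% and 1.89% of genes, and over the 8567 tested genes with a window in 5.92%, 3.55% and 1.95%. Of the 9 genes that rose, 7 matched a window by symbol and 1 of them, Maff, held a motif, the CRE. Of 15 NF-kappaB pathway genes at an unadjusted p under 0.05, 13 had a window and 4 held the kappaB letters: Nfkb2, Nfkbia, Tnfaip3 and Traf2. The AP-1 letters were in 3 of these 13 and the CRE in 1. Of 19 early genes at that level 18 had a window, and 2 held the AP-1 letters, 2 the CRE and 1 the kappaB letters. The windows of Nfkbia (chr12:55492598-55492897, minus strand), Tnfaip3 (chr10:19015361-19015660, minus strand) and Maff (chr15:79347270-79347569, plus strand) are shown 5′ to 3′ on the gene's strand because these genes combine a motif with a large difference. Capitals mark the kappaB letters in Nfkbia, the AP-1 and then the kappaB letters in Tnfaip3, and the CRE in Maff.
Nfkbia: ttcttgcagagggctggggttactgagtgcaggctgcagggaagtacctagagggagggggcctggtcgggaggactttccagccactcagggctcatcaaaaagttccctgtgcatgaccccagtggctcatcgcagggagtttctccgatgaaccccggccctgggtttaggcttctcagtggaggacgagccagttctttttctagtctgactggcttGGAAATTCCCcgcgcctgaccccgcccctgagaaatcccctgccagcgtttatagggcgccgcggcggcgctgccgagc
Tnfaip3: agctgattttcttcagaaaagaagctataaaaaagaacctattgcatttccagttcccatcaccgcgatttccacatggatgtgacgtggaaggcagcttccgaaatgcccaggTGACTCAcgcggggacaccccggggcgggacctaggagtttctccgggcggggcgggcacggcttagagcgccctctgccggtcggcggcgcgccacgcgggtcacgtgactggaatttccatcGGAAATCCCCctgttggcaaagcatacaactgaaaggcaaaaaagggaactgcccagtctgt
Maff: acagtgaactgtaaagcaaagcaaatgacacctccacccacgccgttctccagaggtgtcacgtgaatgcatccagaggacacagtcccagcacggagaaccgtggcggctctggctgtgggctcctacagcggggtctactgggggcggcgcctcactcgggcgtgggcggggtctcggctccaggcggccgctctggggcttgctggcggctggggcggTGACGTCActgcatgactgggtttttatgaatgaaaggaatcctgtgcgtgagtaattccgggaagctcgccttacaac
A match describes letters in this window and is not a bound site. In Nfkbia and Tnfaip3 the kappaB letters read in the reverse orientation, and the CRE is its own reverse complement.

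The decay factors, which bind inflammatory messengers and lead to their degradation, were higher in part. Of 8 tested genes 4 had an unadjusted p under 0.05, all higher: Zc3h12a, which rose, and Zfp36, Zfp36l1 and Zc3h12c. Zfp36 encodes tristetraprolin, which binds AU-rich elements, and measured 264, 265, 206 and 214 FPKM in the knockout libraries against 111 and 129 with EGFP (log2 difference 0.97, limma adjusted p 0.181). Zfp36l1, its paralog, measured 91.4, 85.4, 93.6 and 76.8 against 59.1 and 59.1 FPKM. The roquin genes Rc3h1 and Rc3h2, whose proteins recognise stem-loops in the same messengers as Regnase-1, differed by -0.06 and -0.12. The count was 3 to 4 without each of the 6 libraries in turn, and 0 to 1 were lower over the 10 other settings.

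Immediate-early genes, which are transcribed within minutes of a stimulus without new protein synthesis, were higher in the knockout libraries in 19 of 36 tested genes and lower in 0 at an unadjusted p under 0.05, and 35 of 36 were higher at any size, against 51.8% over all genes tested. The count of 19 was 10 without EGFP replicate 1 and 15 to 18 without each of the other 5 libraries. Without knockout replicate 2 it was 16, and with markers of other brain cells as a covariate 15. Socs3, the feedback inhibitor of STAT3 signalling, measured 57.9, 70.9, 47.5 and 63.5 FPKM in the knockout libraries against 25.2 and 28.0 with EGFP (log2 difference 1.13, limma adjusted p 0.0644). Ier2, an early response gene, measured 127, 123, 84.2 and 103 against 49.3 and 48.5 FPKM (1.12), and Junb, an AP-1 subunit, 397, 397, 330.3 and 327 against 181 and 191 FPKM (0.95). Csrnp1, a nuclear protein on the same list, measured 8.46, 8.96, 7.11 and 7.49 against 4.18 and 4.98 FPKM. Fos and Fosb, which pair with Jun proteins in AP-1, were higher by 0.79 and 0.68, and Atf3, a stress-induced repressor, by 0.57. Jun itself measured 335, 308, 333 and 282 against 216 and 286 FPKM, and its groups overlapped. Klf2 was the 1 gene of the list that was lower, by -0.31, with overlapping groups.

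**Figure D4:**
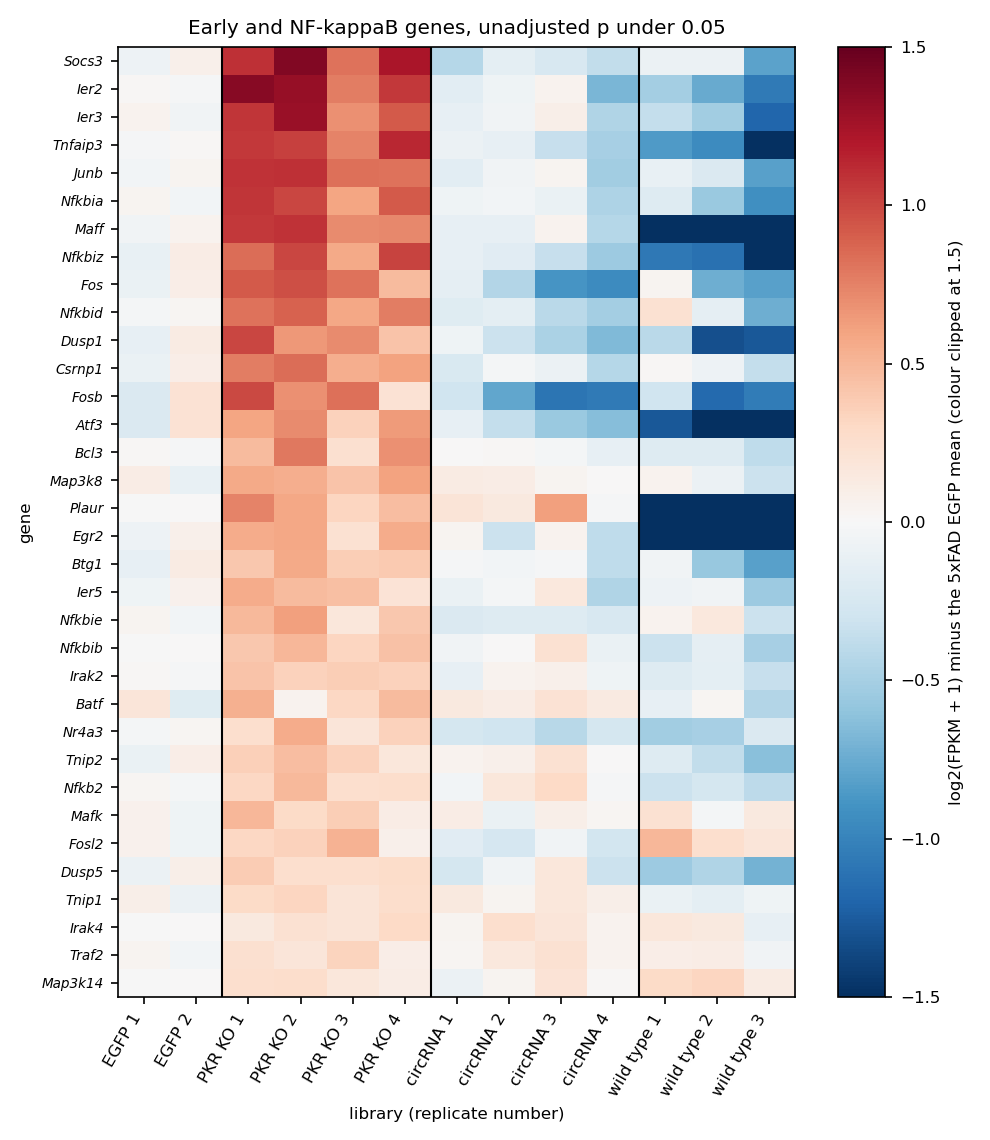
Early and NF-kappaB pathway genes with an unadjusted p under 0.05 (rows) in the 13 libraries (columns), as log2(FPKM + 1) minus the mean of the 5xFAD EGFP libraries, with colour clipped at 1.5. All 34 rows are higher on average in the knockout libraries. Socs3, Ier2, Ier3 and Tnfaip3 are at the top, with differences of 1.13, 1.12, 0.99 and 0.99.

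Cytokines and chemokines were counted together. Of 20 tested cytokines and chemokines, 5 were higher and 0 lower at an unadjusted p under 0.05. The count was 3 without EGFP replicate 1, 9 without knockout replicate 3, 4 to 7 without each of the other 4 libraries, and 4 to 12 over the 10 other settings. The lower count was 1 without EGFP replicate 2, 0 without each of the other 5 libraries, and 0 to 1 over the 10 other settings. Osm, oncostatin M of the interleukin-6 family, measured 23.2, 28.0, 18.0 and 24.0 FPKM in the knockout libraries against 10.5 and 12.1 with EGFP (log2 difference 0.97, limma adjusted p 0.116). Tnfsf9, the ligand of 4-1BB, measured 3.52, 3.92, 2.42 and 4.47 against 1.85 and 1.75 FPKM, and Il1b, interleukin-1 beta, 18.6, 26.1, 15.3 and 21.8 against 14.3 and 10.1. Csf1, a ligand of the receptor that keeps microglia alive, measured 95.3, 103, 73.4 and 103 against 66.5 and 72.5, and Cxcl16, a membrane-bound chemokine, 23.6, 28.9, 21.5 and 26.9 against 16.8 and 18.4 FPKM. The most abundant chemokines, Ccl3 and Ccl4, measured 319, 397, 249 and 374 against 211 and 273 and 255, 305, 189.6 and 265 against 168 and 187 FPKM, with 1 overlapping library for Ccl3. Tnf measured 17.7, 29.3, 12.1 and 26.4 against 11.5 and 15.6 FPKM and did not reach an unadjusted p of 0.05. Inflammasome sensor Nlrp3 was higher at 28.0, 32.3, 26.0 and 26.1 against 15.8 and 18.9 FPKM (log2 difference 0.66, limma adjusted p 0.194).

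Of 46 tested interferon-stimulated genes, 41 were higher at any size and 5 lower. At an unadjusted p under 0.05, 12 were higher and 1, Eif2ak2 itself, was lower. The count of 12 was 2 without EGFP replicate 2, 7 without knockout replicate 2, 10 to 15 without each of the other 4 libraries, and 8 to 20 over the 10 other settings. It was 10 with markers of other brain cells as a covariate. Irf1, a transcription factor induced by interferon gamma, measured 17.0, 20.9, 18.1 and 16.2 against 10.8 and 10.5 FPKM (log2 difference 0.70, limma adjusted p 0.0822). Isg15, a ubiquitin-like modifier, measured 4.90, 5.12, 4.73 and 5.15 against 3.04 and 2.25 FPKM, and Usp18, which removes it, 4.24, 4.96, 3.50 and 3.96 against 3.20 and 2.11. The oligoadenylate synthetases make the second messenger that activates RNase L and, like PKR, respond to double-stranded RNA. Of 5 tested genes of this family 4 were higher at an unadjusted p under 0.05, a count that was 1 without EGFP replicate 2, 4 without each of the other 5 libraries, and 1 to 4 over the 10 other settings. Oas1a measured 8.88, 9.81, 6.75 and 7.51 against 5.61 and 4.70 FPKM, Oas2 1.75, 2.37, 1.56 and 1.36 against 1.17 and 0.827, Oas1g 2.60, 3.09, 1.87 and 2.11 against 1.57 and 1.42 and Oasl2 5.19, 6.93, 4.42 and 4.97 against 4.18 and 3.13. In all 4 of them, and in Irf1 and Usp18, knockout replicate 2 was the highest of the 4. Oas1a and Oas1g are near-identical copies, so fragments may have been split between them.

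Other sensors of nucleic acids include Toll-like receptors and inflammasome proteins. Of 10 tested sensors, Nlrp3 and Zbp1 were higher and Tlr3 lower at an unadjusted p under 0.05. The count higher was 1 without EGFP replicate 2, 2 to 3 without each of the other 5 libraries, and 1 to 4 over the 10 other settings. The lower count was 0 without EGFP replicate 1, 1 without each of the other 5 libraries, and 0 to 2 over the 10 other settings. Zbp1, a sensor of Z-form nucleic acid, measured 2.84, 3.79, 2.75 and 3.08 against 2.20 and 1.73 FPKM, and Tlr3, the endosomal receptor for double-stranded RNA, 5.19, 5.35, 5.73 and 5.64 against 7.46 and 7.07 FPKM. Ddx58 (RIG-I) and Ifih1 (MDA5), the cytosolic receptors for double-stranded RNA, differed by 0.18 and 0.13. Irf7 and Irf5, factors that induce interferon, measured 3.91, 3.87, 2.98 and 2.72 against 2.70 and 1.86 and 59.0, 59.2, 54.7 and 60.1 against 50.9 and 47.3 FPKM, higher in all 4 knockout libraries without reaching an unadjusted p of 0.05.

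For antigen presentation by MHC class I only transcripts were measured. All 13 tested class I genes were higher and 8 had an unadjusted p under 0.05, with a median log2 difference of 0.40 (0.25 to 0.46 over the 16 alternatives). The count of 8 was 4 without EGFP replicate 2, 6 to 8 without each of the other 5 libraries, and 5 to 11 over the 10 other settings. Without knockout replicate 2 it was 6, and with markers of other brain cells as a covariate 6. H2-Q4, H2-Q6 and H2-Q7, non-classical class I genes with similar sequences among which fragments may have been split, measured 21.9, 23.9, 22.3 and 20.4 against 12.6 and 14.5, 20.9, 25.3, 22.9 and 19.0 against 13.8 and 13.5 and 7.88, 9.95, 9.39 and 7.56 against 5.38 and 6.03 FPKM. Nlrc5, the transactivator of the class I genes, measured 6.20, 8.86, 7.15 and 6.18 against 4.83 and 4.49 FPKM, and the constant chain B2m 981, 1053, 1006 and 1019 against 968 and 848. The 6 tested class II genes were higher too, by 0.26 to 0.55, with 0 at an unadjusted p under 0.05. That count was 1 without knockout replicate 2, 0 without each of the other 5 libraries, and 0 to 2 over the 10 other settings. Cd74, the invariant chain, measured 435, 286, 587 and 329.5 against 295 and 244 FPKM, and knockout replicate 2 lay below the higher EGFP library. Without that replicate Cd74 was the gene that reached an unadjusted p under 0.05, at a log2 difference of 0.71 and an adjusted p of 0.491 by limma.

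Disease-associated microglia genes, which are raised around amyloid plaques, were higher in the knockout libraries in 14 of 38 at an unadjusted p under 0.05 and lower in 0. The count of 14 was 6 without EGFP replicate 1, 9 without EGFP replicate 2, 10 to 14 without each of the other 4 libraries, and 10 to 23 over the 10 other settings. Without knockout replicate 2 it was 10, and with markers of other brain cells as a covariate 12. The median log2 difference was 0.34 and ran from 0.18 to 0.38 over the 16 alternatives, lowest with quantile normalization. Gpnmb, a membrane glycoprotein of lipid-laden macrophages, measured 55.2, 78.7, 83.6 and 55.8 FPKM in the knockout libraries against 26.6 and 31.6 with EGFP (log2 difference 1.18, limma adjusted p 0.0644). Apoe, the lipid carrier whose human alleles alter Alzheimer's disease risk, measured 3344, 3671, 2585 and 3561 against 1684 and 2027 FPKM (0.82), and Spp1, osteopontin, 189, 292, 405 and 204 against 99.5 and 98.2 FPKM (1.39). Cd83 measured 107, 114, 96.2 and 121 against 72.6 and 63.4 FPKM and Itgax, the integrin CD11c, 109, 103, 120.5 and 109 against 81.9 and 80.7. Trem2, the receptor that drives this state, measured 233, 222, 209.5 and 196 against 170.0 and 151, higher by 0.42, and Ctsd, cathepsin D, 3155, 3196, 3382 and 3041 against 2482 and 2183 FPKM, neither at an unadjusted p under 0.05. The TREM2 signalling chain Tyrobp overlapped, at 628 to 717 against 701 and 596.

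Homeostatic genes gave counts that depended on the setting. Of 29 tested genes 1 was higher (Irf8) and 1 lower (P2ry13) at an unadjusted p under 0.05. The higher count was 0 without each of the 6 libraries in turn and 0 to 7 over the 10 other settings. The lower count was 0 without knockout replicate 1 or 3 or EGFP replicate 1 or 2, 1 without each of the other 2 libraries, and 0 to 8 over the 10 other settings. Quantile normalization gave 0 higher and 7 lower, rescaling to equal FPKM sums gave 0 and 3, and the fit with markers of other brain cells as a covariate gave 0 and 8. With the 2 groups alone 7 were higher and 4 lower. The median difference of 0.17 became -0.02 with that covariate. The purinergic receptors P2ry13 and P2ry12, which steer microglial processes toward ATP, were lower in all 4 knockout libraries, at 72.0, 96.6, 89.2 and 97.3 against 121 and 125 and 153, 179, 192 and 193 against 244 and 241 FPKM. Irf8, a transcription factor of the microglial lineage, measured 54.1, 57.1, 56.7 and 54.9 against 44.9 and 43.5 FPKM, and Cx3cr1, the fractalkine receptor, overlapped at 276, 342, 284 and 325 against 323 and 314. Of 14 complement genes, C1qb and Itgax were higher at an unadjusted p under 0.05, with C1qb at 1638, 1553, 1525 and 1527 against 1186 and 975 FPKM. That count was 0 without EGFP replicate 1 or 2, 1 without knockout replicate 1, 2, 3 or 4, and 1 to 6 over the 10 other settings. In the lysosome list 3 of 27 were higher (2 to 3 without each of the 6 libraries in turn and 2 to 13 over the 10 other settings) and 1 lower (0 without knockout replicate 1 or EGFP replicate 1 or 2, 1 without each of the other 3 libraries, and 0 to 3 over the 10 other settings), among them Atp6v0d2, a proton pump subunit (5.14, 6.10, 8.82 and 6.83 against 3.61 and 3.98 FPKM), and Npc1, the cholesterol exporter of lysosomes (12.0, 13.6, 12.8 and 14.5 against 16.3 and 15.5 FPKM).

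**Figure D5:**
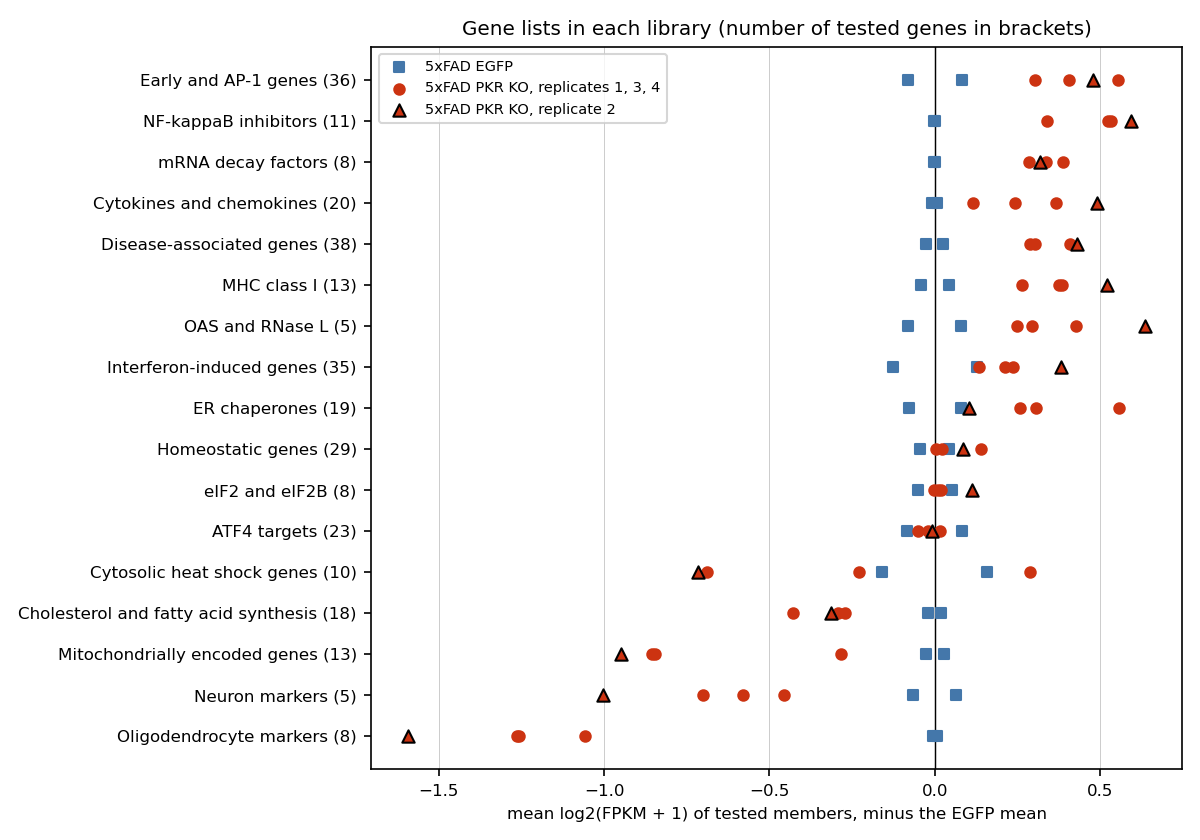
Mean log2(FPKM + 1) over the tested members of each gene list in the 6 libraries, minus the mean of the EGFP libraries (x axis), with the number of genes in brackets (y axis), where the ATF4 and interferon entries hold only the target or induced genes of those lists. Squares are EGFP, circles are knockout replicates 1, 3 and 4, and the outlined triangle is knockout replicate 2. For early genes, NF-kappaB inhibitors, decay factors, MHC class I, OAS and disease-associated genes all 4 knockout libraries lie to the right of both EGFP libraries. For homeostatic genes, eIF2 subunits and ATF4 targets the groups overlap.

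Chaperones of the ER and of the cytosol were counted separately, and the difference between them was not tested. Of 19 tested genes of the ER, 5 were higher and 0 lower at an unadjusted p under 0.05, with a median log2 difference of 0.38 (0.20 to 0.45 over the 16 alternatives). The count of 5 was 0 without EGFP replicate 2, 9 without knockout replicate 2, 4 to 5 without each of the other 4 libraries, and 3 to 9 over the 10 other settings, and the count of 0 lower was 1 with the covariate. Hyou1 and Creld2, a chaperone and an ER-resident protein induced by misfolded proteins, measured 20.2, 17.4, 27.0 and 19.5 against 14.3 and 11.9 and 20.7, 14.0, 27.3 and 15.5 against 12.8 and 10.1 FPKM, and Calr, the lectin chaperone calreticulin, 211, 172, 238 and 189 against 159.7 and 139. Knockout replicate 3 was the highest in all 3. Of 10 tested cytosolic genes 5 were higher and 5 lower at any size, with 1 higher and 2 lower at an unadjusted p under 0.05. The higher gene was Hsf1, the heat shock transcription factor, by 0.22. The 2 lower were Hspa1a and Hspa1b, inducible heat shock proteins of near-identical sequence among which fragments may have been split, at 33.3, 19.9, 56.9 and 15.1 against 106 and 68.3 and 69.3, 39.8, 129 and 30.1 against 214 and 140.2 FPKM. The knockout libraries spread 15.1 to 56.9 FPKM for Hspa1a, with replicate 3 nearest to the EGFP libraries. The count of 2 lower was 0 without EGFP replicate 1, 5 without knockout replicate 3, 2 without each of the other 4 libraries, and 2 to 4 over the 10 other settings. The count of 1 higher was 0 without knockout replicate 1 or EGFP replicate 2, 2 without knockout replicate 2, 1 without each of the other 3 libraries, and 0 to 1 over the 10 other settings. Hsp90ab1, an abundant cytosolic chaperone of the separate HSP90 family, overlapped at 163, 126, 226 and 162 against 140.0 and 126. The circRNA libraries, at 32.5 to 80.7 FPKM, and the wild type libraries, at 50.8 to 101, spread widely for Hspa1a as well.

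Genes of cholesterol and fatty acid synthesis were lower in part, with counts that depended on the libraries and the settings. Of 18 tested genes, 8 were lower and 0 higher at an unadjusted p under 0.05, and 16 were lower at any size, against 48.2% over all genes tested. The median log2 difference was -0.29. Dhcr7, which completes cholesterol synthesis, measured 2.95, 2.85, 2.20 and 2.91 against 3.94 and 3.79 FPKM (log2 difference -0.39, limma adjusted p 0.154). Sqle, squalene epoxidase, measured 0.953, 0.858, 0.762 and 0.873 against 1.75 and 1.72 FPKM and Scd2, a stearoyl-CoA desaturase, 59.6, 55.0, 57.9 and 59.4 against 97.0 and 90.4. The oligodendrocyte markers were also lower, with sums of 235 to 390.4 against 673 and 714 FPKM, and none of these 9 markers was at 0 in all 6 libraries. Whether the 2 differences are related was not tested. With markers of other brain cells as a covariate the count of synthesis genes was 3 lower and 1 higher, with a median of -0.12. The count of 8 was 1 without EGFP replicate 1 or 2, 2 without knockout replicate 3, 3 without knockout replicate 2, 5 without knockout replicate 1, 6 without the other library, and 3 to 13 over the 10 other settings. Of 9 tested genes of efflux, uptake and storage 3 were higher at an unadjusted p under 0.05, a count of 2 to 5 over the 10 other settings and 2 to 3 without 1 library. Plin2, which coats lipid droplets, measured 13.4, 12.4, 14.3 and 14.3 against 9.09 and 8.38 FPKM (log2 difference 0.59, limma adjusted p 0.0644), and Abca1, the cholesterol pump, 52.7, 61.7, 54.8 and 58.6 against 43.7 and 40.7 FPKM.

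All 13 mitochondrially encoded genes were lower in the knockout libraries, 6 of them at an unadjusted p under 0.05, with a median log2 difference of -0.66. mt-Nd3, a subunit of complex I, measured 134, 125, 139 and 173 FPKM in the knockout libraries against 345 and 337 with EGFP, and mt-Co1, a subunit of complex IV, 1824, 1742, 1877 and 2733 against 3478 and 3313 FPKM. Summed over the 13 genes, the knockout libraries held 10710.0, 10124, 10809 and 16545 FPKM and the EGFP libraries 19589 and 18740.0. Replicate 4 is the nearest to EGFP, and it also had the highest oligodendrocyte sum of the 4 (390.4 FPKM). In replicates 1 and 3 the orders differed. Replicate 3 had the higher mitochondrial sum and the lower oligodendrocyte sum (255 against 277 FPKM). With markers of other brain cells as a covariate the median was -0.40 and 3 genes were lower at that level. The count of 6 was 2 without EGFP replicate 1 or 2, 3 without knockout replicate 1 or 2, 11 without knockout replicate 4, 5 without the other library, and 1 to 13 over the 10 other settings, and the median without knockout replicate 4 was -0.85. Of 75 tested respiratory chain genes of the nucleus, 4 were lower and 1 higher, with a median of -0.04. The lower count was 0 without EGFP replicate 1, 2 without knockout replicate 2, 4 to 6 without each of the other 4 libraries, and 2 to 15 over the 10 other settings. The higher count was 0 without knockout replicate 1 or EGFP replicate 2, 5 without EGFP replicate 1, 1 without each of the other 3 libraries, and 1 to 6 over the 10 other settings. The split moved with the scaling. Rescaling to equal FPKM sums gave 15 lower genes and 1 higher, quantile normalization gave 9 and 1, and median-ratio scaling gave 4 and 6. The oligodendrocyte markers were lower in 5 of 8 tested genes at an unadjusted p under 0.05. Mog, a myelin surface protein, measured 3.12, 2.36, 3.76 and 3.08 against 12.7 and 12.5 FPKM. The part of oligodendrocyte RNA in the mitochondrial result was not tested.

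Further lists were built around single genes of the 9 that rose, so a count of at least 1 higher gene in each was fixed in advance. With that gene included, 1 to 4 genes of each list were higher at an unadjusted p under 0.05. Of 15 tested p53 targets, Cdkn1a and Plk3 had an unadjusted p under 0.05 (a count that was 4 without knockout replicate 4, 2 to 3 without each of the other 5 libraries, and 2 to 5 over the 10 other settings), with Plk3, a polo-like kinase, at 18.1, 20.2, 15.7 and 18.5 against 11.0 and 15.2 FPKM, and Gadd45b, a stress gene listed beside them, measured 11.9, 15.1, 10.4 and 12.2 against 5.71 and 6.17 (adjusted p 0.0644 by limma). Among 10 genes of histone demethylases and of the polycomb methyltransferase complex, Kdm6b alone was higher and 0 lower at an unadjusted p under 0.05. The higher count was 2 without knockout replicate 4, 1 without each of the other 5 libraries, and 1 to 2 over the 10 other settings, and the lower count 1 without knockout replicate 4, 0 without each of the other 5 libraries, and 0 to 1 over the 10 other settings. Among 14 sorting genes Sorl1 alone reached that level. Its list had 1 to 3 genes higher and 0 to 2 lower over the 10 other settings, and Sort1, another receptor of its family, differed by -0.15. In the Wnt list Dkk2 was accompanied by Axin1, a scaffold of the complex that degrades beta-catenin, at 8.36, 7.75, 8.40 and 7.35 against 6.25 and 6.24 FPKM, a count of 2 that was 2 without each of the 6 libraries in turn and 2 to 5 over the 10 other settings. In the actin list Tmsb10 was accompanied by Arpc3 (0.33), a count that was 1 without knockout replicate 2 or 4 or EGFP replicate 2, 2 without each of the other 3 libraries, and 1 to 5 over the 10 other settings. In the matrix list Lox was accompanied by Adam8, Thbs1 and Fn1, by 0.37, 0.29 and 0.59, a count that was 2 without knockout replicate 3 or EGFP replicate 2, 3 to 4 without each of the other 4 libraries, and 2 to 6 over the 10 other settings. In the folate list 3 of 12 tested genes were higher at that level, among them Mthfs and Mthfsl (0.27), a gene of similar name and sequence. The count was 1 without EGFP replicate 1, 2 to 3 without each of the other 5 libraries, and 0 to 3 over the 10 other settings. Of 11 genes of amyloid precursor processing 0 had an unadjusted p under 0.05, with 0 to 1 higher and 0 to 1 lower over the 10 other settings. Bace1, the beta-secretase, measured 1.20, 0.761, 1.11 and 1.15 against 1.72 and 1.78 FPKM.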

How the data were processed

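RNA of mouse microglia was sequenced after ribosomal RNA depletion with a stranded kit, per the labels' protocols. The authors deposited 1 table of FPKM values with 1 column for each of the 13 libraries, and 0 columns of samples were left out. The submitters' processing notes name HISAT2 2.1.0, Bowtie2 2.3.5, featureCounts 1.5.1 and mm10, without their roles. Annotation and strand setting are not given in the sources used here. Since FPKM is relative to the library total, an abundant group of genes that changes can move the others. Depth was recovered from the steps of values below 0.3 FPKM with GENCODE M21 exon lengths: 88.7% to 91.4% of them came within 0.02 of a whole number of fragments (chance gives 4%). A gene of 2 kb at 1 FPKM then rests on 90.4 to 140.0 fragments, which sets its counting error only.

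Libraries were grouped by title. All 13 entered 1 limma 3.58.1 fit (R 4.3.3) on log2(FPKM + 1) with group means and an intensity trend, two-sided, with Benjamini-Hochberg adjustment over the 10817 genes with a mean of 1 FPKM or more. The 9 residual degrees of freedom pool the spread of all groups, since the EGFP group has 2 libraries. The pseudocount of 1 understates changes of low genes. The labels do not say that libraries came from separate animals, so p-values measure the spread between these libraries, which may be technical. Genes named are Eif2ak2, those that passed, the 10 higher and 10 lower with the smallest unadjusted p, and from each list up to 4 members with the smallest p and up to 2 with the highest mean, and the sex-linked genes. Others were chosen after their values were seen. The members and lists were chosen with earlier results of these data known, several lists because a gene that passed belongs to them, and are described by counts without a test. The fit was tested on simulated data. Alternatives were 2 other filters, another pseudocount, 3 scalings, the 2 groups alone, library weights, a covariate of neuron, astrocyte, oligodendrocyte and endothelial markers, a replicate block and 6 fits without 1 library each. A few listed genes are not reported here.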

Additional observations from a re-analysis of the deposited data

Results flagged for a closer look

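Among the 4 knockout libraries, 1 library lay far from the other 3 by Dixon's test at its 95% level in 8 of the values reported. The test was applied to 129 genes and 14 summed lists, and chance gives such a value in about 1 in 20 groups. Replicate 4 was the highest in the summed mitochondrially encoded genes, at 16545 FPKM against 10124 to 10809 in the other 3, and in mt-Co1 at 2733 against 1742 to 1877 FPKM. It was also the highest in the summed monocyte and neutrophil markers, at 26.7 against 1.56 to 5.33 FPKM, and in Eloc, a subunit of elongin, at 4.84 against 4.30 to 4.38 FPKM. Replicate 2 held 0.00550 FPKM of the Y-linked helicase gene Ddx3y, against 6.64 to 7.64 in the others. Hsf1 was highest in replicate 1, at 5.86 against 5.29 to 5.37 FPKM. Replicate 3 had the lowest Dhcr7, at 2.20 against 2.85 to 2.95 FPKM. Galm, galactose mutarotase, stood at 3.50 FPKM in replicate 2, against 3.90 to 3.92. The causes were not tested.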

How the results depend on the processing

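The count of 9 genes that passed was 13 with no filter on low values (2 shared with the 9), 25 at a mean of 5 FPKM or more (8 shared), 46 with median-ratio scaling (9 shared) and 15 with the marker covariate (8 shared). It was 577 with the 2 groups alone (212 higher, 365 lower) and 822 with library weights (473 higher, 349 lower). By limma it was 0 with a pseudocount of 0.1, after rescaling to the same sum and after quantile normalization, where 1440, 1736 and 1466 genes had an unadjusted p under 0.05. Without 1 library it was 0 to 2. It was 0 in 5 of these 6 limma fits, with 678 to 1371 genes at an unadjusted p under 0.05. The causes were not tested. The numbers of the knockout and EGFP libraries give only 2 pairs (mean correlation of deviations 0.33, against -0.11 in the 6 other combinations) and do not pair the samples. Under the replicate block the count was 22 (6 shared), and Eif2ak2 differed by -0.63 (0.0617).

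Eif2ak2 was lower in each of the 16 alternatives. Its log2 difference and limma adjusted p were -0.64 (0.0288) at a mean of 5 FPKM or more, -0.64 (0.0201) with the 2 groups alone, -0.64 (0.00650) with library weights and -0.73 (0.0433) with the marker covariate, and it did not pass in the other 12. Without 1 library it was -0.72 to -0.59 (0.103 to 0.620). Of the values of other named genes under these alternatives, 1764 kept direction and call, 91 lost and 149 gained a call, and 10 changed sign, all in 5 genes. With the marker covariate B2m was -0.0174, Csf1r -0.0177 and Tyrobp -0.18. Rescaled to the same sum, Tyrobp was -7.00e-04. With the replicate block Cx3cr1 was 0.0301 and Slc3a2 0.0220, and Slc3a2 was 0.0275 with median-ratio scaling. Without 1 library Tyrobp was -0.0587 to 0.18 and Slc3a2 -0.10 to 0.0748. Of the list medians 913 moved by less than 1 SD of the knockout libraries and 188 by more. Depth limits genes near 1 FPKM most, and the EGFP group has only 2 libraries.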

Other observations

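Cytosolic ribosomal proteins, the structural proteins of the ribosome, were higher in the knockout libraries in 25 of 80 tested genes and lower in 3 at an unadjusted p under 0.05, with a median log2 difference of 0.21. Many have near-identical pseudogene copies among which fragments may have been split. The count of 25 was 8 without EGFP replicate 2, 14 without knockout replicate 1, 18 to 30 without each of the other 4 libraries, and 14 to 34 over the 10 other settings. Without knockout replicate 2 it was 18, with the marker covariate 23 and with quantile normalization 14. The lower count of 3 was 0 without EGFP replicate 1, 1 without knockout replicate 1 or 3 or EGFP replicate 2, 2 to 3 without each of the other 2 libraries, and 1 to 5 over the 10 other settings. The median ran from 0.10 to 0.30 over the 16 alternatives.

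Genes near Eif2ak2 on chromosome 17 were counted separately. Of 51 genes within 5 Mb, 35 were tested and 0 passed by limma. At an unadjusted p under 0.05, 2 were higher (Xdh, xanthine dehydrogenase, by 0.82, and Galm, galactose mutarotase, by 0.35). At the same level 5 were lower, by -0.43 to -0.15. The shares over all genes tested were 7.41% higher and 5.57% lower. The median of the 35 genes was -0.05.

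The difference between the groups varied with the level of the gene. Its median was -0.06 over the 1996 genes of 1 to 2 FPKM and 0.05 over the 4007 of 5 to 20 FPKM. It was 0.15 over the 814 of 20 to 100 and 0.24 over the 144 of 100 FPKM or more. At an unadjusted p under 0.05, 46 genes were higher and 159 lower in the lowest of these ranges, and 23 and 8 in the highest. Several of the lists above hold abundant genes, and the part of the level in their counts was not tested.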
